A study of Mus musculus with 8 samples.

Results

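Nlrp4a, Nlrp4b, Nlrp4c, Nlrp4e, Nlrp9a, Nlrp9b, Nlrp9c and Nlrp14, 8 genes of the NLRP family that are known from the oocyte, were taken by symbol from the 2 deposited expression tables of mouse MII oocytes. All 8 were present in both tables, among the 8898 genes of the ribosome-bound table, the 10530 genes of the total mRNA table and the 8537 genes that the tables share. RiboTag IP/RNA-Seq had been performed on ovulated MII oocytes of C57BL/6 RiboTag F/F;Zp3-Cre females, either young (1 month) or old (retired breeders of 12 to 15 months). In these mice the Cre recombinase is driven by the Zp3 promoter, which is active in growing oocytes, and it switches the ribosomal protein Rpl22 to a form with an HA tag, so both ages carry the tag. The females received 5 I.U. PMSG and, 48 h later, 10 I.U. hCG, and ovulated oocytes were retrieved after a further 13 h. Each age had 2 pools of 200 oocytes, and a pool combines oocytes of several females. Each pool gave a library of RNA precipitated with the HA tag (HA, ribosome-bound mRNA) and a library from 10% of the same lysate (input, total mRNA), 8 libraries in all. The comparison asked whether the ribosome loading or the level of these mRNAs differed between young and old oocytes.

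NLRP proteins hold a nucleotide-binding NACHT domain and leucine-rich repeats, usually behind an N-terminal pyrin domain. Some members, such as NLRP3, assemble inflammasomes in immune cells. Another group was expanded by gene duplication in rodents and is expressed mainly in oocytes, from which the proteins are carried into the early embryo. Its best known member, NLRP5 (MATER), is a subunit of the subcortical maternal complex. NLRP14 is required in the female for early embryo development, and Nlrp9b is also known from the intestinal epithelium, where its protein takes part in the sensing of rotavirus RNA. Fully grown and maturing oocytes do not transcribe, so protein output from these mRNAs depends on how stored mRNA is translated.

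All 8 genes lie on chromosome 7 of GRCm38 (GENCODE M21 annotation). Nlrp9c (26322473 to 26403700, minus strand), Nlrp4a (26435113 to 26476142, plus strand) and Nlrp9a (26535023 to 26575615, plus strand) are direct neighbours among the genes of the tables, 31413 and 58881 bases apart. Nlrp4c (6045161 to 6105150), Nlrp4b (10687789 to 10730168), Nlrp9b (19991465 to 20073306), Nlrp4e (23301192 to 23362277) and Nlrp14 (107166990 to 107198102) are all on the plus strand and stand apart from this group. Their coding sequences fall into the families that their names give. Nlrp4c and Nlrp4e are 93.9% identical over 2937 aligned coding bases, Nlrp9a and Nlrp9c 87.5%, Nlrp9a and Nlrp9b 84.2%, and Nlrp9b and Nlrp9c 82.3%. Nlrp14 is 58.7% to 60.8% identical to each of the other 7. The annotated proteins have 863 (Nlrp4b) to 1004 (Nlrp9a and Nlrp9c) residues.

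Copies this alike can exchange reads. Of the 50-base words of its transcripts, Nlrp4e shared 36.7% with another annotated gene (30.8% with Gm16443 and 30.3% with Gm8486) and Nlrp4c shared 10.7% (6.97% with Nlrp4e), so the Nlrp4e and Nlrp4c values are uncertain. The share was 7.79% for Nlrp9b, 6.07% for Nlrp9a, 2.63% for Nlrp4a and 2.61% for Nlrp9c. Nlrp4b and Nlrp14 had 0 shared words of this length. Nlrp9b also overlaps the processed pseudogene Gm18877 over 136 exonic bases (3.65% of its exons). Reads were counted over the whole span of a gene, introns included and without strand, and exons make up 4.55% (Nlrp9b) to 11.8% (Nlrp4a) of the spans.

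The 3'-UTRs of the Nlrp9 genes are shown to compare these closely related copies. Cytoplasmic polyadenylation elements (CPEs) in 3'-UTRs are known to govern translation in maturing oocytes, but whether they bear on the values here was not tested. CPEs were searched as TTTTAT or TTTTAAT on the sense strand of each gene's longest annotated 3'-UTR. The Nlrp9a 3'-UTR of 195 bases is 89.2% identical to that of Nlrp9b (201 bases) and 95.4% to that of Nlrp9c (196 bases). The 30 bases that start at base 11 of each 3'-UTR follow, 5′ to 3′, with the CPE in capitals.
Nlrp9a: aggtttatccttTTTTATgtttctcctata
Nlrp9b: aggcttatcctctgttatgtttctcccata
Nlrp9c: aggcttatcctttTTTTATgtttctcctgt
The windows lie at chr7:26573964-26573993 (Nlrp9a, plus strand), chr7:20062750-20062779 (Nlrp9b, plus strand) and chr7:26364847-26364876 (Nlrp9c, minus strand). Counting from 1 at the 5′ end of the window, Nlrp9a and Nlrp9b differ by T4C, T12C, T14G and T27C, with the Nlrp9a base first. T14G falls within the CPE, which has no match in the Nlrp9b 3'-UTR. The Nlrp9a and Nlrp9c 3'-UTRs each hold 1 CPE, 173 bases before the 3' end, far from the AATAAA or ATTAAA signal that lies 25 bases before the end in all 3 genes.

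In the Nlrp4 family, the 3'-UTRs of Nlrp4a (1003 bases), Nlrp4b (1161 bases) and Nlrp4c (539 bases) held 5, 3 and 1 CPEs, and that of Nlrp4e (355 bases) held 0. The last CPE of each of the first 3, with the CPE in capitals, is shown to compare them with the Nlrp9 windows.
Nlrp4a: cttttcatccaaTTTTATgtcatctctcac
Nlrp4b: tgtgattaaagtaatTTTTATgaaagtata
Nlrp4c: ctgttttgtgttTTTTATtaaataataaat
They lie at chr7:26476084-26476113, chr7:10727106-10727135 and chr7:6105106-6105135, all on the plus strand. The last CPE stands 47, 15 and 33 bases before the 3' end. The Nlrp14 3'-UTR of 193 bases held 0. Thus 5 of the 8 members held a CPE, beside 70.3% of the 8208 genes of the HA table and 67.7% of the 9613 genes of the input table that have an annotated 3'-UTR. Those 3'-UTRs are longer, with a median of 1528 bases in the HA table, and a match of these letters is a description, not a shown site. Of the members without a CPE, Nlrp9b had a lower mean HA value in old oocytes (log2 difference −0.82). Nlrp4e (0.99) and Nlrp14 (0.69) had higher ones. None of these differences passed the test, and a link between CPEs and HA values was not tested.

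Promoters (RefSeq, GRCm38.p6, windows of 300 bases of which the last 50 lie past the start) were found for 7 of the 8 members. The Nlrp9a and Nlrp9c promoters are 96.8% identical over 252 bases, with an identical run of 106 bases, and each holds 3 CCAAT motifs, counted on both strands. A stretch with the first CCAAT motifs, in capitals, shows how alike the Nlrp9 pair is and how the Nlrp4 genes compare.
Nlrp9a: gcagCCAATgatagagccatagcagCCAAT
Nlrp9c: gcagCCAATgatagagccatagcagCCAAT
Nlrp4a: gctggCCAATcacatggcaacatagaatgt
Nlrp4b: attgaCCAATcacatggtaccatagacttt
Nlrp4c: ATTGGCCAATcacatggcaccatagacctt
They lie at chr7:26534968-26534997 (plus strand), chr7:26403770-26403799 (minus strand), chr7:26435559-26435588, chr7:10687734-10687763 and chr7:6045138-6045167 (plus strand). The promoters of Nlrp4b, Nlrp4c and the second annotated start of Nlrp4a are 78.3% to 80.9% identical to each other over 228 to 275 bases and hold the E-box CAGCTG further downstream, a motif that 16.3% of all 32851 promoters hold. The Nlrp9b promoter held 0 CCAAT motifs and aligned with that of Nlrp9a over 14 bases. At least 1 CCAAT was found in 37.4% of all promoters and at least 3 in 3.37%.

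All members except Nlrp4c were among the abundant mRNAs of the oocyte (plot of members' CPM by library). Values are CPM, the reads of a gene relative to library size, on the TMM scale of each table, and SDs are between the 2 pools of an age. Nlrp14 was the highest in every group per kb of exon, at 624 ± 102 CPM per kb (SD, n = 2) in young and 1038 ± 377 in old HA libraries, within the top 0.304% and 0.259% of 8875 genes ranked. In young HA libraries it was followed by Nlrp9b (391 ± 67.3 CPM per kb), Nlrp9a (305 ± 2.63), Nlrp4a (251 ± 2.72), Nlrp4b (174 ± 47.2), Nlrp9c (76.9 ± 12.9), Nlrp4e (60.7 ± 12.7) and Nlrp4c (7.36 ± 4.82). The ranges of neighbours in this order did not overlap, except those of Nlrp9c and Nlrp4e. In old HA libraries Nlrp9b stood behind Nlrp9a (507 ± 197 CPM per kb), Nlrp4a (349 ± 8.31) and Nlrp4b (249 ± 21.8), at 233 ± 112. There Nlrp9b, Nlrp4e and Nlrp9c each overlapped with the gene before it in the order, so these neighbours did not differ beyond their spread. In input libraries Nlrp14 (395 ± 9.71 young and 377 ± 29.7 old) and Nlrp9b (383 ± 18.3 young and 344 ± 75.7 old) led at both ages, and their ranges overlapped. Nlrp4c was the lowest in every group, at 4.59 ± 2.81 CPM per kb in young and 6.89 ± 9.25 in old input.

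**Figure D1:**
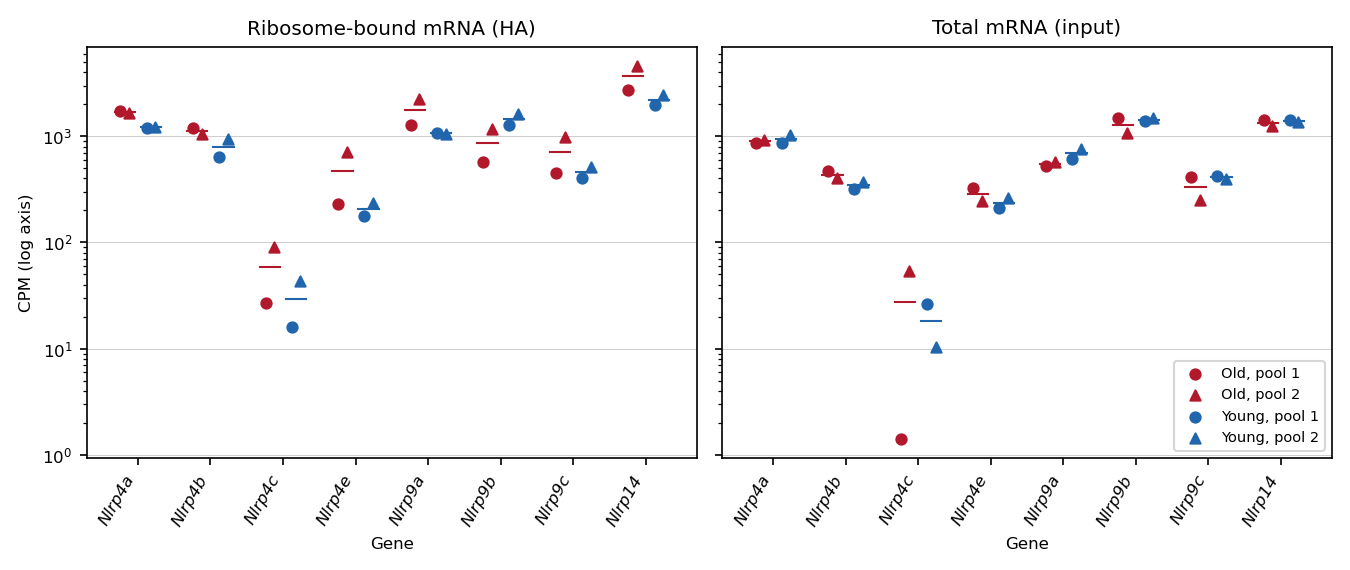
CPM of the 8 NLRP genes on a log axis in the HA libraries (left) and the input libraries (right). Points are oocyte pools (circles pool 1, triangles pool 2, red old, blue young) and horizontal bars are the mean of 2 pools. In HA, Nlrp9b is the gene whose old pools, at 571 and 1163 CPM, lie below both young pools, and in input old pool 1 has Nlrp4c at 1.40 CPM.

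Sequencing depth was 37817382 to 59688578 reads on listed genes in HA and 38276453 to 60052814 in input, so that 3 reads, the least taken as detected, were worth 0.0388 to 0.111 CPM. Except for Nlrp4c in input of old pool 1 (76 reads), each member had at least 397 reads in each library, and depth was not the limit of its precision. The 2 pools of an age were the only replicates. An exact two-sided permutation test of 2 against 2 cannot go below p = 0.333. Of 12 oocyte markers 11 were in both tables, and of 7 leukocyte and 4 red blood cell markers 0 were in either. The summed oocyte markers were at 13236 to 18225 CPM in old and 12344 to 12636 in young HA libraries, and at 10524 to 10900.4 and 11394 to 11614 in input. Of 5 oviduct epithelium markers Cdh1 was in both tables, at 672 to 705 CPM in old and 478 to 686 in young HA libraries, and Epcam in input alone, with a sum of 363 to 391 in old and 436 to 462 in young input. Of 13 granulosa and cumulus markers 4 were in the HA table, at a summed 84.7 to 85.3 CPM in old and 158 to 185 in young libraries, and 9 in the input table, at 32.8 to 132 and 134 to 234 CPM. The granulosa sums were lower and the oocyte sum in HA was higher in old pools, and their part in the results was not tested. In bulk pools, fewer cells of a type and less RNA per cell cannot be told apart.

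In ribosome-bound mRNA, 7 of the 8 members had higher mean values in old oocytes and Nlrp9b had a lower one on the TMM scale (4 were higher under same-sum and 3 under quantile scaling), but none of these differences passed the test. Log2 differences were fitted with limma on log2(CPM + 1) over all genes of a table, so they slightly understate the change of low genes. The members' log2 differences, old minus young, ran from −0.82 (Nlrp9b) to 0.99 (Nlrp4e), with a median of 0.62 beside −0.14 over all 8898 genes. Adjusted p (limma, Benjamini-Hochberg) ran from 0.478 to 0.817. At an adjusted p under 0.05 limma called 0 of 8 members and 0% of all genes, and at an unadjusted p under 0.05 it called 0 of 8 members beside 14.7% of all genes. The edgeR likelihood ratio test called 295 genes, edgeR's quasi-likelihood test 0 and DESeq2 497, and each called 0 members.

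Nlrp14 had the highest HA value of the members in all 4 pools. The old pools held 2729.6 and 4613 CPM, and the young pools 1952 and 2463 CPM. Both old pools lay above both young pools, with old pool 2 far above the other 3. The log2 difference was 0.69 ± 0.38 (SE), with an adjusted p of 0.486 (limma), and 0.32 without old pool 2.

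Nlrp4a was at 1719 and 1662 CPM in old and at 1205 and 1224 CPM in young HA libraries. The pools of an age were close to each other (1690.3 ± 40.2 and 1214 ± 13.2 CPM, SD, n = 2), the ages did not overlap, and the old mean was 1.39 times the young mean. The log2 difference of 0.48 ± 0.33 (SE) had an adjusted p of 0.623 (limma, which draws the variance of a gene towards that of genes of like abundance). Nlrp4b, at 1186 and 1047 CPM in old and 633 and 933 CPM in young HA libraries, also did not overlap (log2 difference 0.53 ± 0.38 SE, 0.26 without young pool 1). Its young pools differed from each other more than the nearer old and young pools did.

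Nlrp4e and Nlrp4c, the most alike copies, varied most. Nlrp4e was at 231 and 714 CPM in old and 176 and 237 CPM in young HA libraries, so the old mean was set by pool 2, and old pool 1 lay within the young range. Its log2 difference was 0.99 ± 0.62 (SE) and fell to 0.18 without old pool 2. Nlrp4c was at 26.9 and 90.6 CPM in old and 15.9 and 43.2 CPM in young HA libraries, which overlap. In both ages pool 2 held the higher Nlrp4c value. Its log2 difference was 0.03 without old pool 2 and 1.75 without old pool 1.

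The 3 Nlrp9 copies did not go together. Nlrp9a was at 1282 and 2252 CPM in old and 1069.7 and 1057 CPM in young HA libraries, with both old pools above both young pools (log2 difference 0.68 ± 0.40 SE). Nlrp9c was at 455 and 979 CPM in old and 402 and 510.3 CPM in young, with old pool 1 inside the young range (0.56 ± 0.49 SE). Without old pool 2 the log2 difference fell to 0.27 for Nlrp9a and to 0.01 for Nlrp9c. Nlrp9b was at 571 and 1163 CPM in old and 1278 and 1633 CPM in young HA libraries. Both old pools lay below both young pools, and the old mean was 0.596 times the young mean. The log2 difference of Nlrp9b was −0.82 ± 0.45 (SE), with an adjusted p of 0.478 (limma), and ran from −1.34 to −0.31 when each pool was left out in turn, closest to 0 without old pool 1.

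Across the members, both old HA values were above both young values for Nlrp4a, Nlrp4b, Nlrp9a and Nlrp14, 4 of 8 beside 17.2% of all genes. They were below for 1 of 8, Nlrp9b, beside 24.7% of all genes. Log2 differences above 0 were found for 7 of 8 members and 45.9% of all genes. Abundance moves with these shares. Among the 890 genes of the top 10% by mean HA CPM, which hold 7 of the members, the median log2 difference was 0.61, 53.1% had both old values above both young values, and 3.6% had both below. Nlrp4c, at a lower level, was not among them. For the 7 members with higher old means, 39.2% to 72.5% of these abundant genes had a lower log2 difference, and the members' median (0.62) was close to theirs. Nlrp9b was the exception, with 1.57% of the abundant genes below its value.

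**Figure D2:**
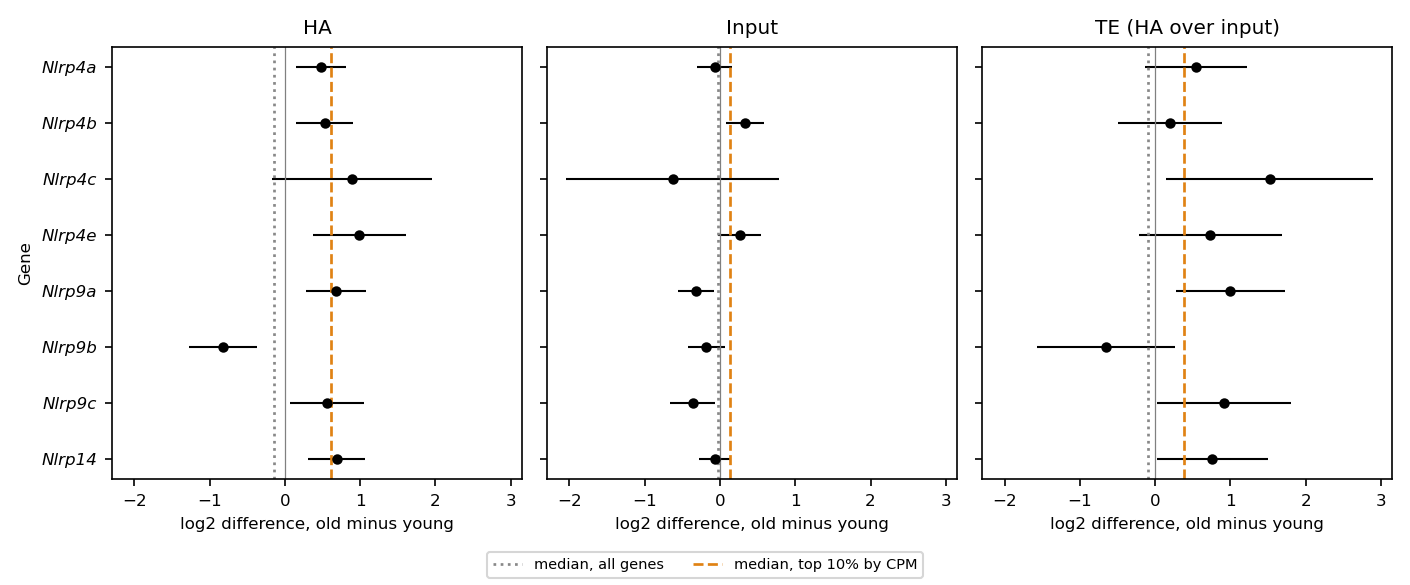
Log2 difference of each NLRP gene, old minus young, in HA, in input and in HA over input (TE), as points with bars of 1 SE from limma (2 pools per age). The dotted line is the median of all genes and the dashed line the median of the top 10% of genes by CPM (by input CPM for TE). In HA, 7 members sit between 0.48 and 0.99, near the dashed line at 0.61, and Nlrp9b sits at −0.82, though under same-sum or quantile scaling 4 or 5 members in all lie below 0.

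The direction of the HA differences of Nlrp4a, Nlrp4b, Nlrp9a and Nlrp9c depended on how libraries were scaled (plot of HA differences by scaling). On the TMM scale the CPM of an HA library summed to 1115494 and 1397708 in old and to 771444 and 831404 in young pools. With libraries rescaled to the same sum, the median of all genes moved from −0.14 to −0.68 and that of the members from 0.62 to −0.02, with 4 members above 0 and 4 below. Relative to the median of all genes, the members' median was 0.75 on the TMM scale, 0.78 under median log2 ratio scaling and 0.66 under same-sum scaling. After quantile normalization, which gives each library the same distribution, the members' median was −0.04 relative to that of all genes. Nlrp9b was below 0 under all 4 scalings, at −0.82 (TMM), −0.61 (median log2 ratio), −1.47 (same sum) and −1.54 (quantile). Nlrp4c, Nlrp4e and Nlrp14 stayed above 0 under all 4 scalings. The size of the difference moved with the scaling for every member, Nlrp9b included, and that of Nlrp14 for example from 0.69 to 0.05 with the same sum.

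**Figure D3:**
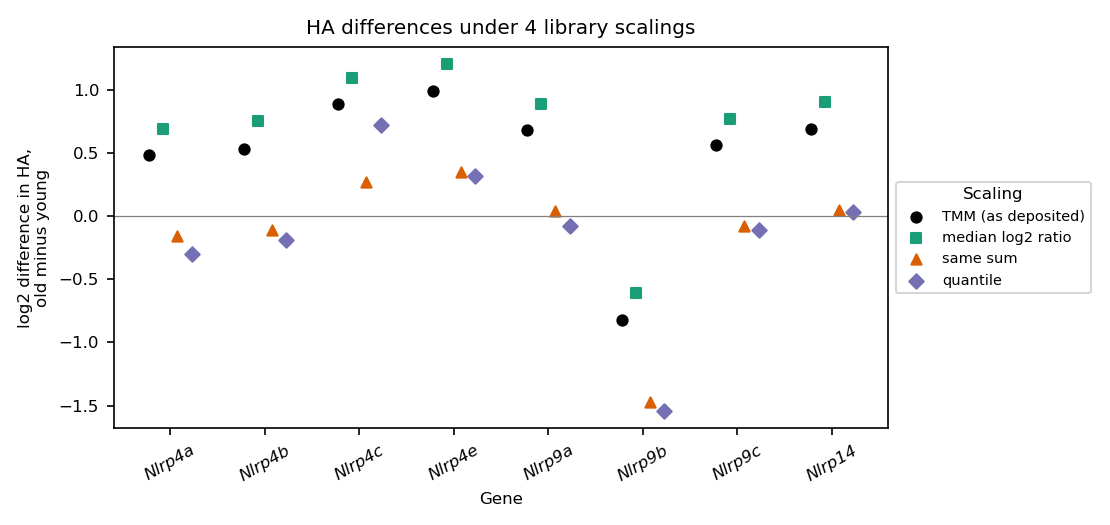
Log2 difference in HA, old minus young, of each NLRP gene under 4 scalings of the libraries (TMM as deposited, median log2 ratio, same sum, quantile), as points without error bars. Nlrp9b lies below 0 under each scaling, from −1.54 to −0.61, whereas Nlrp4a, Nlrp4b and Nlrp9c turn below 0 with the same sum and these and Nlrp9a after quantile normalization.

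A ratio of 2 genes within a library does not change when the library is rescaled by a factor. Such ratios were taken after the values had been seen, so they are given as a description, with no test. The ratio of Nlrp9b to Nlrp9a was 0.446 and 0.516 in HA of the old pools and 1.19 and 1.54 in HA of the young pools (0.481 ± 0.0498 and 1.37 ± 0.248, SD, n = 2). In input it was 2.80 and 1.89 in old and 2.24 and 1.93 in young pools, which overlap. The old pools thus stood apart from the young ones in ribosome-bound mRNA, by −1.50 on the log2 scale, and not in total mRNA (0.15).

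The ratio of Nlrp9b to Nlrp9c behaved alike. It was 1.25 and 1.19 in old and 3.18 and 3.20 in young HA libraries, with 3.59 and 4.31 in old and 3.25 and 3.70 in young input. The ratio of Nlrp9a to Nlrp9c, in contrast, overlapped between the ages in HA (2.81 and 2.30 old, 2.66 and 2.07 young) and in input (1.28 and 2.28 old, 1.45 and 1.91 young). In input, the ratio of Nlrp4b to Nlrp4a (0.537 and 0.431 in old, 0.371 and 0.357 in young) and that of Nlrp4e to Nlrp4a (0.373 and 0.264 in old, 0.246 and 0.253 in young) did not overlap between the ages either, and in HA both did. How often such ratios do not overlap among other genes was not measured. The Nlrp9b share of the summed HA CPM of the 3 Nlrp9 genes was 24.8% and 26.5% in old and 46.5% and 51.0% in young pools, beside 61.2% and 56.8% in old and 57.0% and 55.9% in young input (plot of Nlrp9 shares). Of the sum of all 8 members in HA, Nlrp9b made up 6.97% and 9.29% in old and 19.0% and 20.2% in young pools. The Nlrp14 share of that sum was 33.3% and 36.8% in old and 29.0% and 30.4% in young pools. With Nlrp9b left out of the sum, the Nlrp14 shares overlapped, at 35.8% and 40.6% in old and 35.8% and 38.1% in young pools, as did its ratio to Nlrp4a (1.59 and 2.78 in old, 1.62 and 2.01 in young). In HA the shares of the other 6 members in the sum of all 8 overlapped between the ages. In input those of Nlrp4b (8.50% and 8.37% in old, 6.06% and 6.49% in young) did not. Those of Nlrp4e (5.90% and 5.12% in old, 4.03% and 4.59% in young) did not either.

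**Figure D4:**
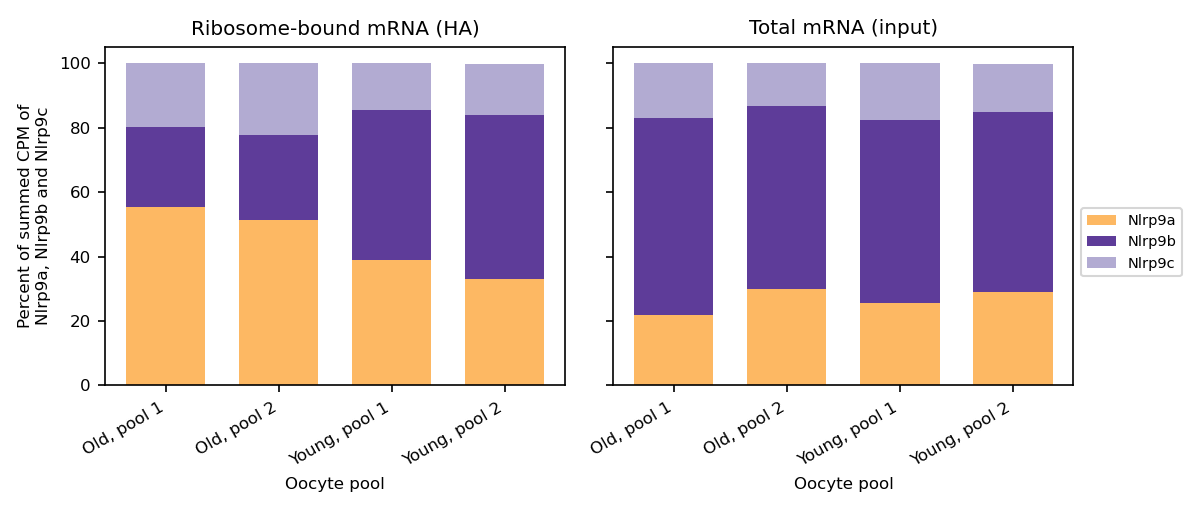
Shares of Nlrp9a, Nlrp9b and Nlrp9c in their summed CPM (percent, stacked to 100), for each oocyte pool, in HA (left) and input (right). In HA, Nlrp9b takes 24.8% and 26.5% of the old pools and 46.5% and 51.0% of the young pools. In input it takes 55.9% to 61.2% in all 4 input libraries.

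In total mRNA the members other than Nlrp4c, whose pools spread widely, differed little between the ages, and none of the differences passed the test. Log2 differences ran from −0.63 (Nlrp4c) to 0.33 (Nlrp4b), with a median of −0.12 beside −0.03 over all 10530 genes. Adjusted p (limma, Benjamini-Hochberg) ran from 0.885 to 0.983. At an adjusted p under 0.05 limma called 0 of 8 members and 0.00950% of all genes, and at an unadjusted p under 0.05 it called 0 of 8 beside 6.18%. The edgeR likelihood ratio test called 50 genes, edgeR's quasi-likelihood test 0 and DESeq2 112, and each called 0 members.

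Both old input values lay above both young ones for 1 of 8 members beside 16.4% of all genes and 29.0% of the top 10% by input CPM. This was Nlrp4b, with 467 and 401 CPM in old and 319 and 369 CPM in young input (0.33 ± 0.25 SE). They lay below for 1 of 8 beside 18.9% of all genes and 8.45% of those abundant genes. This was Nlrp9a, with 528 and 571 CPM in old and 616 and 763 CPM in young input (−0.32 ± 0.24 SE). A log2 difference above 0 was found for 2 of 8 members and 48.6% of all genes.

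The other members overlapped in input. Nlrp14 was at 1408 and 1259 CPM in old and 1423 and 1374 CPM in young pools, and Nlrp9b at 1479 and 1080.0 CPM in old and 1379.6 and 1476 CPM in young. Nlrp4a was at 869 and 931 CPM in old and 859.9 and 1033 CPM in young, and Nlrp4e at 324 and 245 CPM in old and 212 and 261 CPM in young. Nlrp9c was at 412 and 251 CPM in old and 425 and 399 CPM in young, so old pool 2 stood below the other 3 pools.

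Nlrp4c had the widest input spread of the members. It was at 1.40 and 53.8 CPM in old pools 1 and 2 (76 and 2683 reads) and at 26.4 and 10.4 CPM in young pools. The old pools held both the lowest and the highest value, and the log2 difference of −0.63 ± 1.42 (SE) turned to 1.63 without old pool 1. Its sign is opposite to that of the means (27.6 CPM in old, 18.4 CPM in young) and of the log2 difference of 0.58 from edgeR and DESeq2.

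The ratio of HA to input CPM within a pool was taken as the translation efficiency (TE). Because HA and input were normalized separately, its level is relative, and it is read against other genes of the same pool. Nlrp4b stood highest among the abundant members in all pools except old pool 2, at 2.54 and 2.61 in old and 1.99 and 2.53 in young pools, where the median of all genes was 0.572 to 0.729. Between 82.8% and 90.9% of genes lay below it in each pool. Nlrp14 (1.94 and 3.66 in old, 1.37 and 1.79 in young) and Nlrp9a (2.43 and 3.94 in old, 1.74 and 1.38 in young) also stood high, with 76.8% to 89.6% of genes below them. Nlrp4a, at 1.98 and 1.79 in old and 1.40 and 1.18 in young pools, had 71.0% to 80.1% of genes below it.

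Nlrp4e, Nlrp9b and Nlrp9c were nearer the middle in most pools. Nlrp9b was at 0.386 and 1.08 in old and 0.926 and 1.11 in young pools, with 36.4% and 63.1% of genes below it in old and 62.6% and 68.2% in young. Nlrp9c was at 1.11 and 3.91 in old and 0.947 and 1.28 in young, and Nlrp4e at 0.713 and 2.91 in old and 0.830 and 0.908 in young. In both genes old pool 2 was far above the other 3 pools, which were close to each other. Nlrp4c ran from 0.602 to 19.3 and rests on few input reads in old pool 1.

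Between the ages, the TE of 7 members had a higher mean in old oocytes and that of Nlrp9b a lower one, and none passed the test. The log2 differences were 0.54 ± 0.68 (SE) for Nlrp4a, 0.20 ± 0.69 for Nlrp4b, 1.52 ± 1.38 for Nlrp4c and 0.73 ± 0.95 for Nlrp4e. They were 1.00 ± 0.72 for Nlrp9a, −0.65 ± 0.92 for Nlrp9b, 0.92 ± 0.89 for Nlrp9c and 0.76 ± 0.74 for Nlrp14. The median was 0.75 beside −0.10 over all 8537 genes and 0.38 over the 854 genes of the top 10% by input CPM. Adjusted p (limma, Benjamini-Hochberg) ran from 0.814 to 0.966. At an adjusted p under 0.05 limma called 0 of 8 members and 0% of all genes, and at an unadjusted p under 0.05 it called 0 of 8 beside 6.56%. The interaction of age and fraction called 91 genes by the edgeR likelihood ratio test, 0 by edgeR's quasi-likelihood test and 364 by DESeq2, and 0 members by each.

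Both old TE values were above both young ones for Nlrp4a, Nlrp4b, Nlrp9a and Nlrp14, 4 of 8 members beside 17.2% of all genes and 37.9% of the top 10% by input CPM, and below for 0 of 8 beside 20.4% and 7.61%. A log2 difference above 0 was found for 7 of 8 members and 47.1% of all genes. Individual pools decided 2 directions. The Nlrp9b difference was 0.09 without old pool 1, and the Nlrp4e difference was −0.28 without old pool 2. With libraries rescaled to the same sum, the TE differences of Nlrp4b and Nlrp9b were below 0 (−0.25 and −1.10), and after quantile normalization also that of Nlrp4a (−0.06). Relative to Nlrp9a of the same pool, the TE of Nlrp9b was 0.159 and 0.273 in old and 0.534 and 0.799 in young pools, which do not overlap.

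The related genes did not pass the limma test either, which called 0% of all genes in HA and TE and 0.00950% in input. The oocyte NLRP and subcortical maternal complex list (Nlrp5, Nlrp2, Nlrp4f, Ooep, Tle6, Khdc3, Padi6 and Zbed3) had 7 of its 8 genes in both tables, without Khdc3, and 0 of 7 passed the limma test in HA, input or TE in either direction. In HA, 6 of 7 had a log2 difference above 0 beside the 45.9% of all genes, with a median of 0.52 and a range from −0.40 (Tle6) to 1.67 (Zbed3). Zbed3, the gene with the most reads in each HA library, was at 75186 and 93369.7 CPM in old and 25172 and 27633 CPM in young HA libraries (1.67 ± 0.31 SE, adjusted p = 0.297 with limma). Nlrp5, the MATER subunit that lies 23612 bases from Nlrp4e, was at 1747 and 2383 CPM in old and 1123 and 1150.0 CPM in young HA libraries (0.84 ± 0.35 SE, adjusted p = 0.335 with limma). Nlrp2, at 609 and 836 CPM in old and 418 and 421 CPM in young, also did not overlap (0.76 ± 0.39 SE), and Nlrp4f did (0.28 ± 0.46 SE). In input the list's median was −0.22. In its own analysis of these libraries with edgeR, the paper reports increased translation of Nlrp5 in old oocytes. Results of edgeR and DESeq2 for the listed genes are not given here.

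Of further NLR genes, 5 of the 13 sought were in both tables, and 0 of 5 passed in HA, input or TE. Nlrp4g, at 126 and 493 CPM in old and 215 and 259 CPM in young HA libraries, was the most abundant, and Nlrp5-ps had means of 30.4 CPM in old and 39.2 CPM in young. Naip1, Nlrc4 and Nod2, which act as receptors or receptor partners in innate immunity, had means of 1.26 to 17.5 CPM in HA. Both old HA values lay below both young ones in each, 3 of 5 beside the 24.7% of all genes. Single old HA values were as low as 0 CPM (Nod2) and 0.148 CPM (Naip1 and Nlrc4). In input both old values were also lower for Nlrc4 (10.8 and 7.66 against 15.9 and 20.3 CPM) and Nod2 (7.74 and 6.94 against 13.3 and 13.5 CPM), 2 of 5 beside 18.9% of all genes. Of the inflammasome partners (Pycard, Casp1, Casp4, Gsdmd, Il1b, Il18, Nek7 and P2rx7) only Nek7, a kinase that also acts in mitosis, was in the tables, with 9.91 and 93.8 CPM in old and 27.2 and 137 CPM in young HA libraries. The inflammasome adaptor Pycard and the protease Casp1 were in neither table.

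Of the reported NLRP14 partners, Uhrf1, which maintains DNA methylation, and Kpna2, a nuclear import factor, were in both tables and Slc8b1 in neither. Uhrf1 was at 513 and 508 CPM in old and 399 and 338 CPM in young HA libraries (0.48 ± 0.39 SE). Kpna2 was at 156 and 339 CPM in old and 90.7 and 136 CPM in young HA libraries (1.04 ± 0.60 SE). Both had both old HA values above both young ones, as 17.2% of all genes and 53.1% of the top 10% by HA CPM did, and 0 of 2 passed the test in HA, input or TE.

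Of the 16 genes other than members that flank a member in either table, matched by gene identifier, 11 were in the HA table with a median log2 difference of −0.16 (5 above 0 and 6 below), and 15 in the input table with a median of −0.30. None of them passed in HA, input or TE. They include Nlrp5, given above. Ceacam20, 361 bases from Nlrp9b, was at 92.9 and 14.9 CPM in old and 39.9 and 28.7 CPM in young HA libraries. Cyp2b23, next to Nlrp9a, had means of 12.5 CPM in old and 4.03 CPM in young HA libraries, and Zfp667, next to Nlrp4c, 0.743 and 3.31 CPM.

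Genes with the most similar pattern were sought among 5297 other genes with a mean of at least 10 CPM in both tables, by the root mean square distance to the members' mean log2 profile over the 8 libraries, centred within each table. The nearest were Arih1, a ubiquitin ligase (0.0620), Pfdn4, a prefoldin subunit (0.0833), Gdf9, an oocyte growth factor (0.106), and Ccna2, a cyclin, and Cnot1, the scaffold of the deadenylase complex (0.112 each). The median of the genes compared was 0.721. The members themselves lay at 0.150 (Nlrp14) to 1.16 (Nlrp4c), with Nlrp9a at 0.177 and Nlrp9b at 0.512. The mean profile was highest in HA of old pool 2 (0.67) and lowest in HA of young pool 1 (−0.46), while its input values ran from −0.24 to 0.11.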

How the data were processed

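RiboTag HA and input RNA of 4 oocyte pools was sequenced. The authors trimmed the single-end reads (Trimmomatic 0.36), aligned them to GRCm38 with HISAT2 and counted them over whole genes with HTSeq (GENCODE M11, unstranded). They deposited TMM-scaled CPM (unit signal, since columns do not sum to 1e6), with HA and input filtered and normalized apart. On this scale 5642 of 8898 HA and 6775 of 10530 input genes reach the stated minimum of 10 CPM in 2 libraries. No column was left out. Dividing by the value of 1 read gave whole reads for 100.0% of values (tolerance 0.01).

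The main test was limma 3.58.1 (lmFit, eBayes with trend, R 4.3.3) on log2(CPM + 1), two-sided, Benjamini-Hochberg over all genes, threshold 0.05. TE used HA minus input per pool, from a shared lysate. Whole reads were tested with edgeR 4.0.16 and DESeq2 1.42.0 as alternatives. Fits were tested on simulated data. Other alternatives changed the pseudocount, filter, scaling, block and pools. Named genes were the members, the lists described, flanking genes and the 5 nearest profiles. The members and lists were chosen with earlier results of these data known. P-values rest on the spread between pools, with the variance of a gene drawn by limma towards that of genes of like abundance. GENCODE M21 identifiers matched 8875 HA and 10506 input genes, and coding sequences and 3'-UTRs came from that release.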

Additional observations from a re-analysis of the deposited data

How the results depend on the processing

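No member was called under any alternative, and the lowest adjusted p was 0.0553 (Nlrp4e in HA, limma without old replicate 1). Alternatives kept the direction of 113 of 120 member values in HA, 112 of 120 in input and 115 of 120 in TE. These counts include the filter, the fit without trend and the replicate block, which cannot change a log2 difference here. In HA every change of direction came under same-sum or quantile scaling. The median log2 difference of the members moved to −0.02 in HA, −0.31 in input and 0.30 in TE under same-sum scaling, and to −0.10, −0.29 and 0.24 after quantile normalization. With each pool left out in turn it ran from 0.22 to 1.08 in HA (lowest without old replicate 2, highest without old replicate 1), from −0.12 to 0.00 in input and from 0.24 to 0.85 in TE. In HA, the same sum turned Nlrp4a to −0.16, Nlrp4b to −0.11 and Nlrp9c to −0.08, and quantile normalization turned Nlrp4a to −0.30, Nlrp4b to −0.19, Nlrp9a to −0.08 and Nlrp9c to −0.11. In TE, the same sum turned Nlrp4b to −0.25, and quantile normalization turned Nlrp4a to −0.06 and Nlrp4b to −0.38. Leaving out pools, TE of Nlrp9b ran from −1.39 to 0.09 (without old replicate 1) and of Nlrp4e from −0.28 (without old replicate 2) to 1.74. Input of Nlrp4c was at 0.58 by each count tool and ran from −2.88 to 1.63 (without old replicate 1, 0.00 without young replicate 1), that of Nlrp9b from −0.40 to 0.05 and of Nlrp14 from −0.15 to 0.01 (both without old replicate 2), and of Nlrp4a from −0.20 to 0.06 (without young replicate 2). Relative to Nlrp9a, an alternative chosen after seeing the data, Nlrp9b was at 0.15 in input. The cause of these changes was not tested.

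With the replicate number as a block, 0 members were called in HA, input or TE. Each replicate number holds a pool of both ages, so the block cannot move a log2 difference. The members' medians are therefore those of the main fit (0.62 in HA, −0.12 in input and 0.75 in TE). Same-numbered pools did not deviate together (r = 0.0786 in HA and 0.0269 in input, across genes), so they were not treated as paired. With 2 pools per age, the spread between pools and not the number of reads limits each comparison.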
